A study of Mus musculus with 81 samples.

Results

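Kcnj6 encodes GIRK2, a subunit of the G protein-gated inwardly rectifying potassium channels, and lies in the part of mouse chromosome 16 that is present in 3 copies in Ts65Dn (Ts) mice. Its levels are described here with those of 4 disomic genes of the same signaling unit, namely the GIRK subunits Kcnj3 (GIRK1) and Kcnj9 (GIRK3) and the GABA-B receptor subunits Gabbr1 and Gabbr2. These 5 genes, chosen by name, are among 57010 gene identifiers in the count matrices of 81 RNA-seq libraries. All 5 passed the filter on low counts in every comparison and had at least 1 read in 81 of 81 libraries.

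GABA-B receptors are obligate heterodimers. The Gabbr1 subunit binds GABA, the Gabbr2 subunit couples to Gi/o proteins, and the released G protein beta-gamma dimers open GIRK channels, which hyperpolarize the neuron. GIRK channels are tetramers. GIRK1 cannot reach the cell surface alone and pairs with GIRK2 or GIRK3, whereas GIRK2 can also form channels without it. In hippocampal pyramidal neurons these channels carry slow inhibitory postsynaptic currents and shape dendritic excitability.

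Each library came from neurons of 1 population of 1 male mouse, taken by laser capture microdissection (LCM) from the hippocampus: CA1 pyramidal neurons (CA1 PNs), CA3 pyramidal neurons (CA3 PNs) or dentate gyrus granule cells (DGCs). Ts mice carry a freely segregating extra chromosome and are a model of Down syndrome. Besides the segment of chromosome 16, that chromosome holds a piece of mouse chromosome 17 whose genes have no counterpart on the human chromosome. The controls were 2N (disomic) offspring of the same breeding, Ts65Dn dams crossed with C57Bl/6J Eicher × C3H/HeSnJ F1 males. Dams received a choline normal diet (ChN, 1.1 g choline per kg) or a choline supplemented diet (ChP, 5.0 g per kg) from conception until the pups were weaned, after which all offspring ate the normal diet until tissue was taken at about 6 months of age (MO). The libraries of Ts against 2N mice numbered 5 and 6 for ChN CA1 PNs, 9 and 7 for ChP CA1 PNs, 6 and 6 for ChN CA3 PNs, 7 and 7 for ChP CA3 PNs, 6 and 6 for ChN DGCs, and 9 and 7 for ChP DGCs.

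The 81 libraries came from 28 mice, of which 25 gave all 3 populations. Totals ranged from 625249 to 4744036 expected counts in ChN libraries and from 358355 to 2559173 in ChP libraries. The median expected count per library was 268 for Kcnj3, 232 for Kcnj6, 54 for Kcnj9 (range 8 to 163), 724 for Gabbr1 and 519 for Gabbr2, so that Kcnj9 was measured with the fewest reads. Levels are given as counts per 1000000 (CPM) on 1 scale over all libraries. A pool of captured cells is a bulk sample, in which fewer cells of a type and less RNA per cell cannot be told apart. The CA3 PN library of mouse 15-145 had the label Ts and the rest of that mouse's libraries the label 2N. It is used as 2N here, and its mean log2 CPM over 44 other genes of the triplicated segment was 6.09. The other 2N libraries of ChN CA3 PNs had 5.85 to 5.99 and the Ts libraries 6.47 to 6.54. The ChN CA1 PN library of the 2N mouse 17-154 had a mean of 6.61 over the same genes, within the 6.43 to 6.65 of Ts libraries and above the 5.82 to 6.09 of the other 2N libraries of that group, whereas 17-154 had 5.94 in CA3 PNs and 5.93 in DGCs. Of the summed levels of marker genes, DGC markers stood at 2044 to 2583 CPM in DGC libraries against at most 171 elsewhere. CA3 markers stood at 607 to 801 CPM in CA3 PN libraries, at 80.3 to 174 in DGC libraries and at 4.5 to 648 in CA1 PN libraries. CA1 markers stood at 49.6 to 1768 CPM in CA1 PN libraries against at most 67.3 elsewhere. The CA1 PN library of mouse 16-272 went against its label in both, with CA1 markers at 49.6 and CA3 markers at 648 CPM. CA3 markers also exceeded CA1 markers in the CA1 PN library of mouse 17-21 (557 against 74.5 CPM). The same held for the CA1 PN libraries of mice 15-336 (551 against 164 CPM) and 15-199 (470 against 390 CPM). In 6 of 27 CA1 PN libraries the summed level of 6 markers of field CA2 exceeded 1000 CPM. The Kcnj6 genotype results in CA1 PNs are given with and without these 6 libraries. Other CA1 PN results include them unless stated.

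The 3 GIRK subunit genes are paralogs, and reads shared between them could be split by the counting. The longest run of bases shared by a pair of their coding sequences, at any position, was 14 for Kcnj3 and Kcnj6, 16 for Kcnj3 and Kcnj9, and 17 for Kcnj6 and Kcnj9. In alignments of these pairs, 65.9%, 67.6% and 69.3% of aligned bases were identical. The most conserved part is the pore, and the sequences below show how far the genes differ even there. They are 60 coding bases around the potassium selectivity filter, from the GRCm39 genome with GENCODE vM39 canonical transcripts, printed 5′ to 3′ on the coding strand, with the codons of the filter in capitals. They lie at chr2:55327615-55327674 on the plus strand in exon 1 of 3 for Kcnj3, at chr16:94633615-94633674 on the minus strand in exon 3 of 4 for Kcnj6, and at chr1:172153730-172153789 on the minus strand in exon 3 of 4 for Kcnj9.
Kcnj3: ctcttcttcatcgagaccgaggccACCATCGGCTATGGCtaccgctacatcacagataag
Kcnj6: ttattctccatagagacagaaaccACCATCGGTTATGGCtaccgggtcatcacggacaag
Kcnj9: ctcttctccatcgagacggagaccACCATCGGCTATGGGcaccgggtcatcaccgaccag
Of these 60 bases, 47 were identical between Kcnj3 and Kcnj6, 49 between Kcnj3 and Kcnj9, and 50 between Kcnj6 and Kcnj9. The whole genes lie at chr2:55325801-55488157 for Kcnj3, chr16:94545901-94798612 for Kcnj6, chr1:172144668-172163568 for Kcnj9, chr17:37356703-37387265 for Gabbr1 and chr4:46662244-46991971 for Gabbr2. Kcnj9 overlaps Igsf8 on the opposite strand, which had 13218 counts over all libraries against 4591 for Kcnj9. Since no source states the strand setting of the counting, reads of this pair may be mixed and the Kcnj9 values are uncertain to that extent. The transcripts opposite Kcnj6 (Gm41505, 485 counts against 20194) and Gabbr2 (Gm57156, 8 counts against 50504) had few reads.

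Kcnj6 was higher in Ts mice in all 6 comparisons of genotype, 3 populations by 2 maternal diets, by 1.25 to 1.48 times in group means. The 4 disomic genes were each called in at most 1 of the 6. A gene was called a differentially expressed gene (DEG) at an unadjusted p under 0.05 in edgeR's quasi-likelihood test. The threshold is that of the study, which used another test (limma-voom with covariates). Among all genes tested in ChN mice, 1.78% were called higher and 1.99% lower for CA1 PNs, 4.9% and 4.3% for CA3 PNs, and 4.55% and 3.96% for DGCs. In ChP mice the shares were 2.14% and 1.46%, 2.67% and 2.32%, and 3.95% and 3.65%.

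In ChN CA1 PNs, Kcnj6 stood at 230, 238, 260, 267 and 295 CPM in the 5 Ts libraries, and at 164 (lowest), 186 (median) and 269 (highest) in the 6 2N libraries. The groups overlapped through the library of 2N mouse 17-154 (269 CPM), and the 5 other 2N libraries were below every Ts library. In ChP CA1 PNs the Ts libraries ranged from 194 to 283 CPM (median 251) and the 2N libraries from 140 to 231 (median 157). Here 8 of 9 Ts libraries were above every 2N library.

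In ChN CA3 PNs, Kcnj6 ranged from 156 to 225 CPM in Ts mice (median 177) and from 111 to 155 in 2N mice (median 119). In ChP CA3 PNs it ranged from 158 to 211 CPM in Ts mice (median 165) and from 110 to 155 in 2N mice (median 129.6). In neither did the genotypes overlap. Over all genes tested, every Ts library was above every 2N library for 0.617% of genes in ChN CA3 PNs and for 0.264% in ChP CA3 PNs.

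In ChN DGCs, Kcnj6 ranged from 223 to 306 CPM in Ts mice (median 293) and from 207 to 252 in 2N mice (median 221). A single Ts library was below the highest 2N library. In ChP DGCs the ranges were 263 to 329.5 CPM in Ts mice (median 283) and 176 to 233 in 2N mice (median 203). These did not overlap, as for 0.233% of all genes tested.

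**Figure D1:**
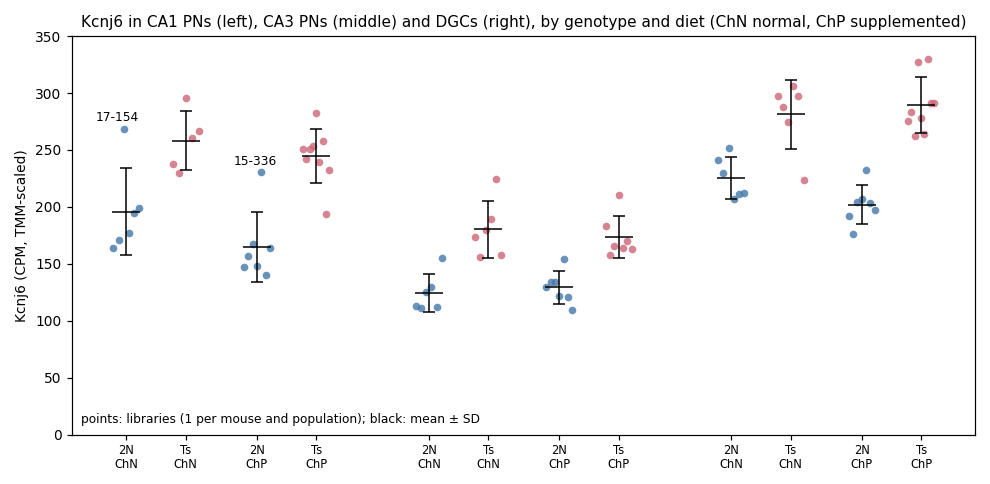
Kcnj6 in each of the 81 libraries, in CPM on a linear axis, by population, maternal diet and genotype, with each point a library and the bar of each group its mean with its SD. The Ts groups lie higher in all 6 pairs, and the genotypes do not overlap in ChN CA3 PNs, ChP CA3 PNs and ChP DGCs.

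The log2 fold changes (LFCs) of Kcnj6 in ChN mice were 0.37 ± 0.135 (SE) for CA1 PNs, 0.56 ± 0.0928 for CA3 PNs and 0.31 ± 0.0793 for DGCs. After Benjamini-Hochberg adjustment over all genes tested with edgeR, the adjusted p was 0.9996, 0.000209 and 0.0409. For ChP mice the LFCs were 0.57 ± 0.108, 0.44 ± 0.0871 and 0.51 ± 0.0763, with edgeR adjusted p of 0.0389, 0.00458 and 2.71e-06. The increase in ChN CA1 PNs thus passed the unadjusted threshold and not the adjusted one, which 0.00814% of all genes passed there. The adjusted threshold was passed by 0.662%, 0.588%, 0.049%, 0.249% and 0.445% of genes in the other 5 comparisons, in the order above. Averaged over diets, the LFCs for the 3 populations were 0.48, 0.50 and 0.42. Two-sided exact permutation tests on log2 CPM gave p between 0.000175 (ChP DGCs) and 0.0303 (ChN CA1 PNs). With limma on log2(TPM + 1) in place of counts, Kcnj6 was not called in ChP CA1 PNs (LFC 0.48), ChP CA3 PNs (0.37) and ChN DGCs (0.092). TPM, the authors' transcripts per 1000000, did not follow CPM in every library. The ChN DGC library of Ts mouse 16-357 had Kcnj6 at 298 CPM and 45.7 TPM, and each member had its lowest TPM of that group there. The ChP CA1 PN library of 2N mouse 16-90 had Kcnj6 at 164 CPM and 14.8 TPM. The part of this in the lost calls was not tested. Leaving out any single library kept Kcnj6 called in all 6 comparisons. In ChN CA1 PNs its LFC then lay between 0.33 and 0.49, the highest value without mouse 17-154.

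The 3 copies in Ts mice against the 2 in 2N mice correspond to an LFC of 0.58. The approximate 95% interval of the Kcnj6 LFC held this value in 5 of 6 comparisons, and in ChN DGCs it ran from 0.16 to 0.47, below it. The other genes of the segment give the local reference. In ChN mice, 27 of 63 tested genes of the segment were called higher for CA1 PNs, 51 of 66 for CA3 PNs and 51 of 67 for DGCs, with median LFCs of 0.40, 0.56 and 0.56. In ChP mice 43 of 72, 49 of 68 and 53 of 71 were called higher, with medians of 0.46, 0.53 and 0.60. None was called lower. A larger LFC than that of Kcnj6 was seen for 34 of 63 genes of the segment in ChN CA1 PNs, 33 of 66 in ChN CA3 PNs and 57 of 67 in ChN DGCs. In ChP mice the counts were 25 of 72, 46 of 68 and 47 of 71. Kcnj6 thus stood near the middle of the segment in ChN CA1 and CA3 PNs and among its smaller increases in ChN DGCs.

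Among the neighbors of Kcnj6, Dyrk1a, a dual-specificity kinase gene next to it, had LFCs of 0.56, 0.50 and 0.38 in ChN CA1 PNs, CA3 PNs and DGCs, and of 0.46, 0.51 and 0.47 in ChP mice. Ttc3, on the same side, had 0.45, 0.61 and 0.59 in ChN mice. Ets2, a transcription factor gene on the other side, had 0.60, 0.31 and 0.49. All 12 of these values were calls. Of 12 tested neighbors, the nearest 6 on each side, 5 were called higher in ChN CA1 PNs, 11 in ChN CA3 PNs and 9 in ChN DGCs, and 9, 8 and 8 in ChP mice. The order of the 3 populations thus differed from gene to gene, and for Kcnj6 itself no difference in genotype effect between populations was called in ChN mice. That difference was -0.16 ± 0.152 (SE) between CA1 and CA3 PNs, 0.06 ± 0.151 for CA1 PNs with DGCs, and 0.22 ± 0.148 for CA3 PNs with DGCs. Among all genes tested, 4.22%, 5.51% and 5.18% were called in these 3 comparisons.

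**Figure D2:**
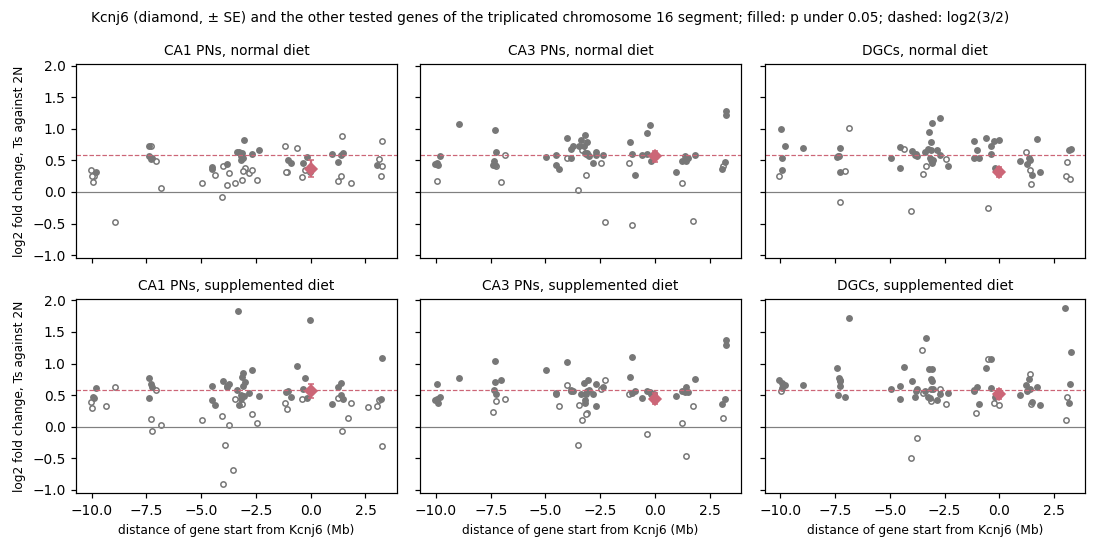
LFCs of Ts against 2N (y axis, log2 scale) of the tested genes of the triplicated segment of chromosome 16, ordered by position, in each population and diet, with Kcnj6 marked and a line at the LFC of 3 copies against 2. Kcnj6 lies among the other genes of the segment, and in ChN DGCs most of them lie above it.

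Kcnj3, whose product joins GIRK2 in most neuronal GIRK channels, was called in none of the 6 genotype comparisons. In ChN CA1 PNs it stood at 278, 286, 286, 294 and 341 CPM in Ts libraries and at 239 to 327 (median 297) in 2N libraries. In ChN CA3 PNs it ranged from 119.5 to 171 CPM in Ts mice and from 132 to 173 in 2N mice, and in ChN DGCs from 250.5 to 358 and from 253 to 368. The genotypes overlapped in all 3, and likewise in ChP mice.

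Kcnj9, which encodes a subunit that lowers surface levels of GIRK channels, had the widest relative spread of the 5. In ChP DGCs it ranged from 46.2 to 127 CPM in Ts mice (median 70.8) and from 66.5 to 120 in 2N mice (median 104). The ranges overlapped, and it was called lower with an LFC of -0.34 ± 0.165 (edgeR adjusted p = 0.653). This call held in 3 of the 16 fits that left out 1 library. In ChN CA3 PNs its LFC was -0.38 ± 0.253 without a call, at 7.21 to 19.0 CPM in Ts and 8.80 to 32.7 in 2N mice.

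Gabbr1 was called higher in ChP DGCs, at 444 to 596 CPM in Ts mice (median 507) against 383 to 512 in 2N mice (median 441). Its LFC was 0.18 ± 0.069 (edgeR adjusted p = 0.396), and the call held in 15 of 16 fits without 1 library. By the authors' TPM the LFC was in the other direction, at -0.13, and not a call. In the same libraries 4 of 8 tested markers of inhibitory neurons were called higher, against 3.95% of all genes. The summed level of all 10 inhibitory markers was 352 to 496 CPM in Ts and 270 to 379 in 2N mice, none of them at 0 in all libraries of either group. The part of these markers in the Gabbr1 and Kcnj9 results was not tested. In ChN DGCs Gabbr1 ranged from 417 to 503 CPM in Ts and from 450 to 463 in 2N mice, so that the Ts libraries lay on both sides of a narrow 2N range.

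Gabbr2 was called in none of the 6. In ChN CA3 PNs it ranged from 560 to 636 CPM in Ts and from 578 to 668 in 2N mice, and in ChN DGCs from 359.5 to 473 and from 371 to 500.1. In ChN CA1 PNs it stood at 358, 398, 401, 410 and 638 CPM in Ts libraries and at 326 to 669 in 2N libraries, with the libraries of Ts mouse 16-357 and 2N mouse 17-21 far above the rest. The SE of its LFC was accordingly 0.208 there against 0.058 in ChN CA3 PNs. In ChN CA3 PNs, 7 of 10 inhibitory neuron markers were called lower, against 4.3% of all genes. Their summed levels were 504 to 687 CPM in Ts and 662 to 926 in 2N mice. Kcnj6 was higher there by 0.56. In ChP CA3 PNs 2 of 9 were called lower, against 2.32% of all genes, and Kcnj6 was higher by 0.44. The part of these markers in the Kcnj6 results was not tested.

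**Figure D3:**
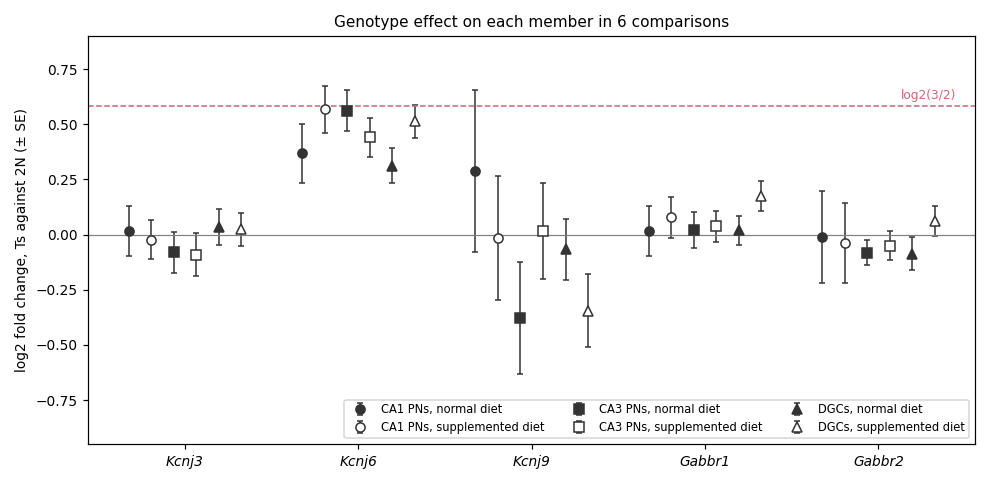
LFCs of Ts against 2N (y axis, log2 scale) of the 5 genes in each population and diet, with bars of ± SE and a line at the LFC of 3 copies against 2. Approximate 95% intervals, which are not drawn, lie above 0 for the 6 Kcnj6 LFCs. Those of the 4 disomic genes hold 0 except for Gabbr1 and Kcnj9 in ChP DGCs.

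Within CA1 PNs, Gabbr1, Gabbr2 and Kcnj9 varied with the CA2 markers. These include Pcp4, which is itself triplicated in Ts mice. The 6 libraries with over 1000 CPM of these markers (Amigo2, Rgs14, Pcp4, Necab2, Map3k15 and Cacng5, summed) came from mice 17-21, 15-336, 16-357, 16-272, 16-90 and 15-199, of both genotypes and both diets. In them Gabbr2 stood at 544 to 754 CPM against 326 to 519 in the other 21 libraries. Gabbr1 stood at 593 to 702 CPM against 761 to 928. Kcnj9 ranged from 13.7 to 41.8 CPM against 35.0 to 94.9. Kcnj6 (164 to 254 against 140 to 295 CPM) and Kcnj3 (239 to 312 against 238 to 341 CPM) overlapped over most of their range. The summed CA1 markers were 49.6 to 684 CPM in these 6 libraries and 852 to 1768 in the others, and the CA3 markers 270 to 648 and 4.5 to 203.

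The 6 libraries were chosen after their values were seen, and their levels are descriptions. Without them the Kcnj6 LFC was 0.40 in ChN CA1 PNs and 0.72 in ChP CA1 PNs. With mouse 17-154 also left out it was 0.54 in ChN CA1 PNs. All 3 values were calls.

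**Figure D4:**
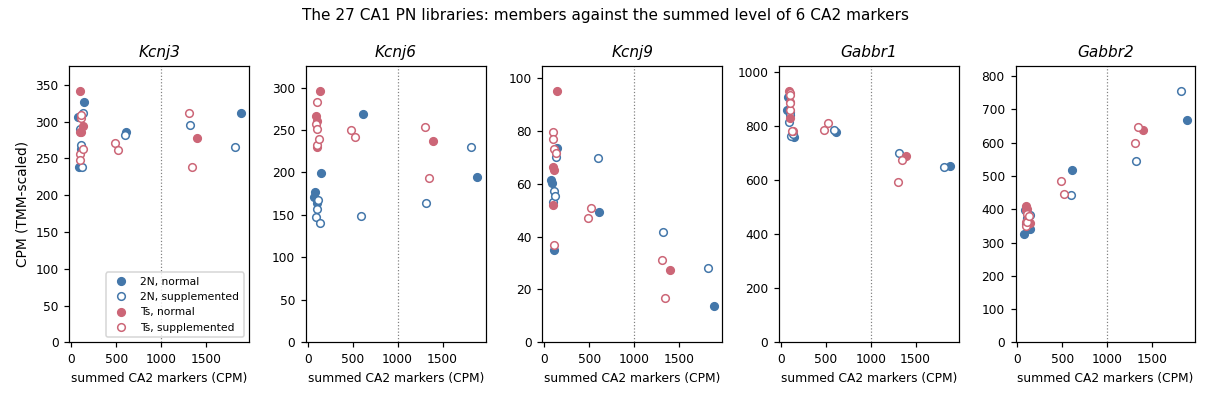
CPM of the 5 genes (y axis) against the summed CPM of 6 CA2 markers (x axis, linear) in the 27 CA1 PN libraries, with a line at 1000 CPM and genotype by color. To the right of the line Gabbr2 is high and Gabbr1 low, while Kcnj6 and Kcnj3 span the range of the other libraries.

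Each of the 5 genes differed between populations. In 2N ChN mice, Kcnj3, Kcnj6 and Kcnj9 were each lowest in CA3 PNs, Gabbr1 was highest in CA1 PNs and lowest in DGCs, and Gabbr2 was highest in CA3 PNs. All 5 were called between CA1 and CA3 PNs and between CA3 PNs and DGCs, and 3 of 5 between CA1 PNs and DGCs. Of all genes tested, 31.4%, 47.5% and 40.7% were called in these 3 comparisons. In Ts ChN mice the shares were 31.1%, 46.1% and 38%.

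Kcnj3 ranged from 239 to 327 CPM in CA1 PNs, from 132 to 173 in CA3 PNs and from 253 to 368 in DGCs of 2N ChN mice. Its CA3 PN libraries were below every library of the other populations. Groups did not overlap for 9.05% of all genes tested between CA1 and CA3 PNs, 23% between CA3 PNs and DGCs and 14.8% between CA1 PNs and DGCs. The LFC was 0.95 for CA1 against CA3 PNs (edgeR adjusted p = 7.75e-12) and -1.05 for CA3 PNs against DGCs (adjusted p = 5.29e-14), while CA1 PNs and DGCs differed by -0.10 (adjusted p = 0.477). Kcnj6 followed the same order with smaller steps of 0.67 (adjusted p = 8.34e-07) and -0.88 (adjusted p = 1.69e-10). Its CA1 PN and DGC levels differed by -0.21, a call before adjustment (adjusted p = 0.121) that held in 2 of 35 fits without 1 library.

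Kcnj9 showed the widest steps. It ranged from 13.7 to 73.7 CPM in CA1 PNs, from 8.80 to 32.7 in CA3 PNs and from 55.7 to 104 in DGCs. CA3 PNs were below DGCs without overlap, with an LFC of -2.23 (edgeR adjusted p = 2.98e-07). CA1 PNs were above CA3 PNs by 1.55 (adjusted p = 0.000316) and below DGCs with an LFC of -0.68, a call before adjustment (adjusted p = 0.062). The call against DGCs held in 31 of 35 fits without 1 library. It was lost without the CA1 PN libraries of mice 17-21 and 17-154 (-0.45), and without the CA2-rich libraries and 17-154 (-0.44).

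The receptor subunits were ordered otherwise. Gabbr1 ranged from 652 to 909 CPM in CA1 PNs, from 584 to 742 in CA3 PNs and from 450 to 463 in DGCs. It was higher in CA1 than in CA3 PNs by 0.27 (edgeR adjusted p = 0.0141) and higher in CA3 PNs than in DGCs by 0.53 (adjusted p = 2.9e-07). Gabbr2 was higher in CA3 PNs than in both other populations, with an LFC of 0.57 for CA3 PNs against DGCs (adjusted p = 0.000363) and -0.53 for CA1 against CA3 PNs (adjusted p = 0.00173). The summed level of 6 astrocyte markers was also highest in CA3 PN libraries, at 1638 to 2837 CPM over all groups against 428 to 1416 in CA1 PN and 659 to 1073 in DGC libraries, and their part in these differences was not tested. Between CA1 PNs and DGCs, Gabbr2 differed by 0.04 (edgeR adjusted p = 0.839). Gabbr2 differed by -0.24, a call, once the CA1 PN libraries rich in CA2 markers and that of mouse 17-154 were left out. In Ts ChN mice the LFCs of CA1 against CA3 PNs were 1.08 for Kcnj3, 0.50 for Kcnj6, 2.22 for Kcnj9, 0.28 for Gabbr1 and -0.44 for Gabbr2. Those of CA3 PNs against DGCs were -1.19, -0.66, -2.54, 0.51 and 0.56. No member was called for a difference in genotype effect between populations, the largest being 0.66 ± 0.462 for Kcnj9 between CA1 and CA3 PNs. The same mice gave the 3 populations, and with the mouse as a block this difference was 0.76 and was called. Without the CA1 PN libraries of 2N mice 17-21 and 17-154, the Gabbr2 difference in genotype effect became a call. That fit kept the CA2-rich library of Ts mouse 16-357, with Gabbr2 at 638 CPM. With all CA2-rich libraries left out, with or without 17-154, the Gabbr2 difference was not a call. Without 17-21 and 17-154 it was 0.39 between CA1 and CA3 PNs and 0.37 between CA1 PNs and DGCs.

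**Figure D5:**
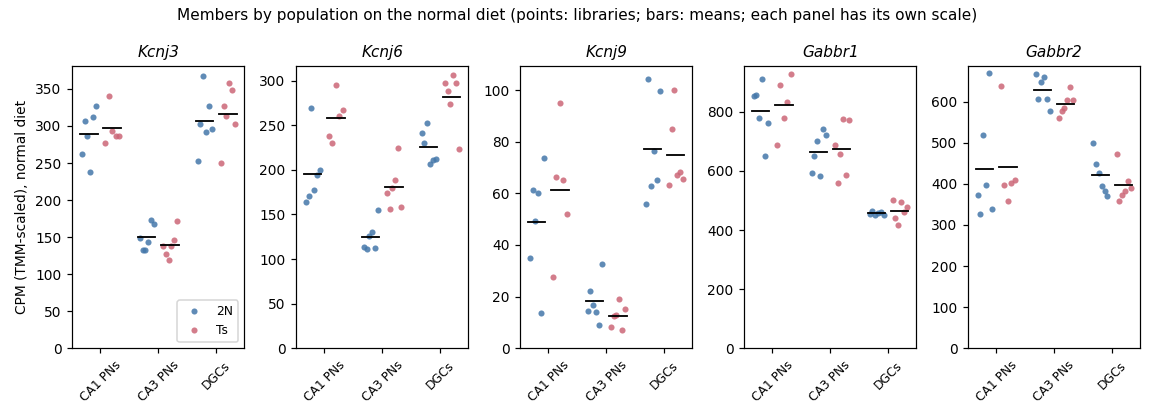
CPM of the 5 genes (y axis, linear) in CA1 PNs, CA3 PNs and DGCs of both genotypes in ChN mice, with each point a library and each bar a mean. By group means, the 3 GIRK genes are lowest in CA3 PNs, Gabbr1 is lowest in DGCs and Gabbr2 is highest in CA3 PNs.

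Between genes, levels were compared per length, as the authors' transcripts per 1000000 (TPM). Over all groups, the median TPM in CA1 PNs was 269 for Gabbr1, 75.5 for Gabbr2, 67.1 for Kcnj6, 60.2 for Kcnj3 and 15.0 for Kcnj9. In CA3 PNs it was 262 for Gabbr1, 169 for Gabbr2, 59.1 for Kcnj6, 43.4 for Kcnj3 and 5.14 for Kcnj9. In DGCs it was 187 for Gabbr1, 101 for Gabbr2, 91.5 for Kcnj6, 82.1 for Kcnj3 and 27.8 for Kcnj9. Gabbr1 exceeded Gabbr2 in 27 of 27 CA1 PN, 26 of 26 CA3 PN and 27 of 28 DGC libraries, and Kcnj6 exceeded Kcnj9 in all 81. Kcnj3 and Kcnj6 were close, with Kcnj3 higher in 12 of 27, 4 of 26 and 6 of 28 libraries.

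Of the summed TPM of the 3 GIRK genes, Kcnj6 made up a median of 43.3% in 2N and 50.8% in Ts ChN CA1 PNs. In ChN CA3 PNs these shares were 49.4% and 60.0%, without overlap between genotypes, and in ChN DGCs 42.6% and 48.8%. In ChP mice they were 38.7% and 50.6% for CA1 PNs, 52.4% and 58.3% for CA3 PNs, and 42.8% and 52.1% for DGCs. The median Kcnj6 share was thus higher in Ts mice in 6 of 6 comparisons, given here as a description of the change in Kcnj6 itself. The ratio of Gabbr1 to Gabbr2 TPM had group medians of 3.31 to 3.48 for CA1 PNs, 1.35 to 1.72 for CA3 PNs and 1.72 to 2.12 for DGCs.

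Maternal diet was called for Kcnj6 in 2 of 6 comparisons and for no other member. Under some alternatives, given below, other members were called too, among them Gabbr1 in Ts DGCs. Kcnj6 was lower in ChP than in ChN 2N mice in CA1 PNs, with ranges of 140 to 231 and 164 to 269 CPM that overlapped (LFC -0.25 ± 0.119, edgeR adjusted p = 0.9998). In DGCs of 2N mice it ranged from 176 to 233 and from 207 to 252 CPM (LFC -0.17 ± 0.0818, edgeR adjusted p = 0.853). The mice of each diet were different animals, and their libraries also differed in totals, whose part in these differences was not tested. Of all genes tested in 2N mice, 3.27% were called for diet among CA1 PNs (1.58% lower), 4.9% among CA3 PNs and 5.82% among DGCs (3.36% lower). In Ts mice the shares were 3.05%, 4.19% and 3.81%. In CA1 PNs the call held in 20 of 27 fits that left out 1 library, with the smallest LFC, -0.15, without the 2N library of mouse 17-154, and in DGCs it held in 9 of 28. In Ts mice the diet LFC of Kcnj6 was -0.08 ± 0.117 for CA1 PNs, -0.04 ± 0.0885 for CA3 PNs and 0.03 ± 0.0729 for DGCs. The difference in the Ts effect between diets was 0.17 ± 0.168 for CA1 PNs, -0.11 ± 0.128 for CA3 PNs and 0.20 ± 0.11 for DGCs, none a call, against 3.22%, 4.87% and 3.97% of all genes.

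Around the 5 genes, 72 further genes of the pathway were listed in 6 groups. Those called higher and lower in Ts mice numbered 2 and 2 of 56 tested in ChN CA1 PNs, 5 and 7 of 59 in ChN CA3 PNs and 9 and 4 of 57 in ChN DGCs. In ChP mice they numbered 1 and 4 of 61, 4 and 4 of 59 and 7 and 1 of 57. Of all genes tested in ChN mice, 1.78% and 1.99%, 4.9% and 4.3%, and 4.55% and 3.96% were called higher and lower, in the same order. In ChP mice these shares were 2.14% and 1.46%, 2.67% and 2.32%, and 3.95% and 3.65%. A single gene, App, was called in all 6.

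App encodes the amyloid precursor protein, whose secreted ectodomain binds the sushi domain of the Gabbr1a isoform, and it is itself in the triplicated segment. It ranged from 1090 to 1235 CPM in Ts and from 592 to 741 in 2N ChN DGCs. Its LFCs were 0.31, 0.57 and 0.73 in ChN CA1 PNs, CA3 PNs and DGCs, and 0.62, 0.47 and 0.66 in ChP mice. In ChN CA1 PNs the 2N library of mouse 17-154 had the highest level, at 3203 CPM, against 1922 to 2269 in the other 2N and 2626 to 2961 in the Ts libraries.

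The auxiliary KCTD subunits, which bind the Gabbr2 tail and set the kinetics of the G protein response, were called in single populations. Kctd12 was lower in CA1 PNs of ChN (LFC -0.38 ± 0.136) and ChP mice (-0.22 ± 0.106). It ranged from 141 to 203 CPM in Ts and from 165 to 256 in 2N ChN mice. Kctd16 was higher in CA3 PNs of ChN (0.24 ± 0.118) and ChP mice (0.33 ± 0.137). These 4 edgeR calls did not pass adjustment over all genes.

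Among G protein subunits of the Gi/o class, 1 of 13 was called higher in ChN CA1 PNs (Gnai1, LFC 0.31), against 1.78% of all genes. In ChN DGCs 2 of 13 were called higher and 1 lower, against 4.55% and 3.96% of all genes. Gng3, a gamma subunit of neurons, was higher in DGCs of both diets by 0.74 and 0.83, from low levels of 5.8 to 17.1 CPM in 2N and 12.4 to 21.9 in Ts ChN mice (edgeR adjusted p = 0.341 in ChN mice). Among RGS proteins, which speed the closing of GIRK channels, and trafficking factors, Rgs14 was higher in ChN DGCs by 0.56 (adjusted p = 0.0391). It also belongs to the CA2 markers, of which 2 of 6 were called higher in these libraries, and its adjusted p passed 0.05 in 4 of 12 fits without 1 library. Gpr158, an orphan receptor that anchors the RGS complex, was higher there by 0.38 (adjusted p = 0.0524).

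Of other receptors that signal through Gi/o proteins, 1 was called higher and 1 lower of 18 tested in ChN CA3 PNs, and 1 higher and 1 lower of 16 in ChN DGCs. The shares over all genes were 4.9% and 4.3% in ChN CA3 PNs and 4.55% and 3.96% in ChN DGCs. Grm4, a presynaptic metabotropic glutamate receptor, was lower in ChN CA3 PNs (LFC -1.54, edgeR adjusted p = 0.0079), at 2.43 to 12.3 CPM in Ts and 4.90 to 22.5 in 2N mice. It was called lower again in ChP CA3 PNs (-0.67 ± 0.29) and higher in ChP DGCs (1.16 ± 0.575), both without passing adjustment. In ChP DGCs it was near the floor, at 0.98 to 6.16 CPM in Ts and 0 to 3.51 in 2N mice. Cnr1, the CB1 cannabinoid receptor gene, had LFCs of -0.33 in ChP CA1 PNs and 1.05 in ChP DGCs, both calls. In the latter 4 of 8 inhibitory neuron markers were also called higher, against 3.95% of all genes. The part of those markers in the Cnr1 value was not tested. Of the adenylyl cyclase genes among the further effectors, Adcy9 was called lower in ChN CA1 PNs, ChN DGCs and ChP CA3 PNs, with LFCs of -0.24, -0.20 and -0.22. Adcy5 was called higher in ChN CA3 PNs (0.44) and ChN DGCs (0.36), and Adcy1 lower in ChN CA3 PNs (-0.75). Of the other inward rectifiers, 5 of 12 were tested in ChN mice of each population, and Kcnj4 was called higher in ChN DGCs by 0.25.

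Across the 12 means of population, genotype and diet groups, the genes whose log2 CPM was most like Kcnj6 among 7647 genes were Gabpa (r = 0.97), Hmgn1 (0.97), Zbtb21 (0.94), Paxbp1 (0.94) and Usp16 (0.94). All 5 lie in the triplicated segment, which holds 0.588% of those genes. Kcnj3, Kcnj9 and Gabbr2 were nearest to genes outside it. Kcnj9 was most like Kcnh3, Adcy1 and Calb1 (0.99 each), Kcnj3 like Zfhx4, Ramp1 and Gm42583 (0.99 each), and Gabbr2 like Dnajc6, Myo5a and Jmy (0.99 each). Between members, r was 0.96 for Kcnj3 with Kcnj9, 0.75 for Kcnj3 with Kcnj6 and -0.98 for Kcnj3 with Gabbr2. These correlations are descriptions over 12 points that share mice and libraries, and the 3 populations set most of their spread.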

How the data were processed

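Laser-captured hippocampal neurons were profiled by stranded, ribosomal RNA-depleted, low-input RNA-seq. The authors trimmed reads with Trimmomatic 0.39, aligned them with STAR and quantified genes with RSEM. The submitters' processing notes name both GRCm39 and mm10, and the strand setting is not given in the sources used here. The deposited values were expected counts per gene, and, in the files of single libraries, the authors' TPM values. Expected counts were rounded to whole numbers.

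For each comparison, genes were kept where 10 libraries or more (all, in fits of fewer than 10) exceeded 0.1 CPM, scaled by TMM and tested, two-sided, with edgeR 4.0.16 (R 4.3.3) quasi-likelihood fits. Genotype was tested within a population and diet, diet and its interaction in 4 groups within a population, and populations in the 6 ChN groups. Calls were at an unadjusted p under 0.05, and Benjamini-Hochberg values cover all genes tested. The SE was taken from the LFC and the F statistic, and intervals are the LFC ± 1.96 SE. Library totals bound precision, least for Gabbr1 and most for Kcnj9, and cover counting error only. TPM were tested as log2(TPM + 1) with limma 3.58.1, and DESeq2 1.42.0 was an alternative. Scripts were tested on simulated data. Mice were the replicates. Mouse numbers in the labels pair the libraries of 1 mouse, and over 34 same-mouse pairs the correlation of deviations from group means had a median of 0.0965 (-0.01 to 0.20). Coordinates and sequences came from GRCm39 with GENCODE vM39. The named genes were the 5 members, listed pathway genes called in a genotype comparison (at most 3 per list and comparison by smallest p), neighbors of Kcnj6 and the genes most like each member (those for Gabbr1 are not reported here). Members and lists were chosen with earlier results of these data known.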

Additional observations from a re-analysis of the deposited data

Results flagged for a closer look

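Of 60 groups of 4 to 10 libraries, 5 held a library whose gap to the nearest other exceeded Dixon's 95% limit, where chance gives about 1 in 20 groups. In each it was the highest library. Kcnj6 stood at 269 CPM in the ChN CA1 PN library of 2N mouse 17-154 and at 231 CPM in the ChP CA1 PN library of 2N mouse 15-336. Gabbr2 stood at 638 CPM in the ChN CA1 PN library of Ts mouse 16-357 and at 712 CPM in the ChP CA3 PN library of 2N mouse 15-296. Kcnj3 stood at 341 CPM in the ChN CA1 PN library of Ts mouse 16-490. The libraries of mice 15-336 and 16-357 were among the 6 with over 1000 CPM of CA2 markers, at 1817 and 1396 CPM. The mean log2 CPM of 44 other segment genes was 6.02 in the library of mouse 15-336, within the 5.86 to 6.13 of its group.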

How the results depend on the processing

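Of 4270 alternative values for 120 results, 4133 kept their side of the threshold. The Kcnj6 genotype calls held under every alternative except TPM, which gave 0.48 in ChP CA1 PNs, 0.37 in ChP CA3 PNs and 0.092 in ChN DGCs. The other 3 gave calls. With the CA3 PN library of mouse 15-145 taken as Ts, Kcnj6 stood at 0.42 in ChN CA3 PNs.

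The diet difference of Kcnj6 in 2N CA1 PNs lost its call with library totals (-0.22), TPM (-0.32) and without mice 17-21 and 17-154 (-0.12), and ran from -0.37 to -0.15 without 1 library. In 2N DGCs it lost it with totals (-0.14), DESeq2 (-0.15), filterByExpr (-0.15) and TPM (-0.17), and ran from -0.19 to -0.13. The diet difference of Gabbr1 in Ts DGCs became a call with totals (0.14), DESeq2 (0.14), voom (0.12) and filterByExpr (0.14). It was also a call in 9 of 28 fits without 1 library. That of Kcnj3 in Ts CA1 PNs became a call by TPM (-0.52), and that of Kcnj9 in 2N DGCs without a filter (0.29). The Kcnj6 interaction became a call in CA1 PNs without CA2-rich libraries (0.32), and was not a call with 17-154 also left out. Without 1 library it ran from 0.07 to 0.29 in CA1 PNs, with a call in 0 of 27 fits. In DGCs it ran from 0.15 to 0.23, with a call in 4 of 28. Kcnj6 in CA1 PNs against DGCs lost its call in 2N mice with voom (-0.21), no filter (-0.21), 15-145 as Ts (-0.21) and without CA2-rich libraries (-0.20), running from -0.33 to -0.15, and gained it in Ts mice with totals (-0.24).

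3 values reversed. Gabbr1 in ChP DGCs was -0.13 by TPM, and Gabbr2 in CA1 PNs against DGCs was -0.25 without mice 17-21 and 17-154 and -0.24 without CA2-rich libraries and 17-154. The causes were not tested. The replicate block by mouse, which pairs populations, made calls of Kcnj9 for the genotype effect difference (0.76) and for CA1 PNs against DGCs in Ts mice (-0.38), and changed no other of its 45 values. Depth limited Kcnj9 most, at 8 to 163 counts per library.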
